A study of Mus musculus with 27 samples.

Results

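The 4 chemokine genes examined are Ccl3, Ccl4, Ccl5 and Xcl1, which CD8+ T cells are known to transcribe. They are 4 of the 47729 genes in the count table and were found by matching its Ensembl mouse IDs to gene symbols. Chemokines are small secreted proteins that guide migrating leukocytes. Ccl3, Ccl4 and Ccl5 encode CC chemokines that attract T cells and myeloid cells, and Ccl3 and Ccl5 bind the receptor CCR1. Xcl1 encodes lymphotactin, whose receptor XCR1 marks the dendritic cells that cross-present antigen to CD8+ T cells. Activated CD8+ T cells transcribe Ccl3, Ccl4 and Xcl1 soon after the antigen receptor is engaged, whereas Ccl5 is known as a late gene that effector and memory CD8+ T cells keep transcribed.

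RNA-seq was run on 27 samples of CD8+ T cells sorted out of tumours of MC38, a mouse colon adenocarcinoma line. Cells that stained for CD45, CD3 and CD8 were separated by PD-1, a checkpoint receptor that T cells put up on activation, and by KLRG1, a receptor of late effector T cells. Tri is the treatment abbreviated TCT in the series text, a combined immunotherapy of which the components are not named, and Iso is the isotype control. Under Tri there were 5 libraries each of PD1+KLRG1+, PD1+KLRG1- and PD1-KLRG1- cells and 4 of PD1-KLRG1+ cells. Under Iso there were 4 each of PD1-KLRG1+ and PD1-KLRG1- cells. All groups share the tumour, the organism and the CD8+ sort. PD1+ cells were analysed under Tri alone. The strain, age and sex of the mice and the time of sampling are not given, nor whether each library came from a separate mouse, so p-values refer to the spread between these samples, which may be technical.

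Ccl3 (ENSMUSG00000000982) lies at chr11:83647844-83649355 on the minus strand of GRCm38, Ccl4 (ENSMUSG00000018930) at chr11:83662584-83664683 on the plus strand, and Ccl5 (ENSMUSG00000035042) at chr11:83525778-83530518 on the minus strand. Xcl1 (ENSMUSG00000026573) lies at chr1:164931644-164935527 on the minus strand and shares 98 exon bases with Gm20743 on the other strand. Gm20743 had 675 counts over all libraries and Xcl1 46373, and whether counting used strand is not given, so reads in the shared bases cannot be told apart. Coordinates are those of GENCODE M21, since the build behind the counts is not given. The class of each chemokine is set by its first cysteines, which are adjacent in CC chemokines and single in XCL1. The stretches of 60 coding bases around these codons are shown because they tell the 4 genes apart. They run from chr11:83649202 to 83648622 in Ccl3, chr11:83662738 to 83663517 in Ccl4 and chr11:83530389 to 83529212 in Ccl5, each joined across an intron, and from chr1:164933001 to 164932942 in Xcl1. Capitals mark the cysteine codons at the start of the motif.
Ccl3: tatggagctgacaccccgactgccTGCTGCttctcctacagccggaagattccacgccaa
Ccl4: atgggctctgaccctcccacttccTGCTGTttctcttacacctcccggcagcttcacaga
Ccl5: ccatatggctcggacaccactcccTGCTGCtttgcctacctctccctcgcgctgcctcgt
Xcl1: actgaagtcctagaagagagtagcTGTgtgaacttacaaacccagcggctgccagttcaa
Ccl3, Ccl4 and Ccl5 each held a pair of adjacent cysteine codons, and Xcl1 held 1 codon at that place. Beyond the first 25 codons there were 4 cysteine codons in each of Ccl3, Ccl4 and Ccl5 and 2 in Xcl1. The longest identical run between the transcripts of any pair of the 4 genes was 13 bases, and the longest with Ccl1, Ccl6 or Ccl9 was 15 bases.

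Promoters are shown for the genes that RefSeq promoters matched, which were 2 of the 4, Ccl3 and Xcl1. These 2 genes differed in which sorted cells held them at the highest level. The 250 bases before the start site are printed in the direction of transcription, from GRCm38.p6, at chr11:83649379-83649628 for Ccl3 and chr1:164935523-164935772 for Xcl1, both on the minus strand. Capitals mark the NFAT core GGAAA or TTTCC, the RUNX core TGTGGT or ACCACA and the KLF core CACCC or GGGTG, searched on both strands. NFAT factors act downstream of the antigen receptor, and RUNX3 is a factor of the CD8+ lineage.
Ccl3: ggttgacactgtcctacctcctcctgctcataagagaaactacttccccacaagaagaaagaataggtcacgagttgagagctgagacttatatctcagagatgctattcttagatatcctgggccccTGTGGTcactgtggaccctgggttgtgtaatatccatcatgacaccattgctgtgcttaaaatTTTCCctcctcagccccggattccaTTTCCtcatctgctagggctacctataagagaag
Xcl1: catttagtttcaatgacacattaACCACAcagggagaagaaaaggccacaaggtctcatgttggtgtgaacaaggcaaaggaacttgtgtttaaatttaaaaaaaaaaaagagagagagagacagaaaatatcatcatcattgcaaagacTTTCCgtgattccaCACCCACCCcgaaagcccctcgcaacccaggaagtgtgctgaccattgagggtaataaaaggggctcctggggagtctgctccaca
The NFAT core occurred at 2 places before Ccl3 and at 1 before Xcl1, and 55.6% of all 32851 promoters held it. The RUNX core occurred at 1 place before each gene and in 14.0% of promoters. The KLF core occurred at 2 places before Xcl1, which share a base, and at 0 before Ccl3, and 52.0% of promoters held it. The AP-1 letters TGANTCA, present in 6.75% of promoters, and an NF-kB site of 10 letters, present in 0.356% and overlapping the NFAT core, were in neither window. A match is a stretch of letters and not a measured site.

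Of the libraries, 26 held between 6991521 and 26284630 counts each, and Iso PD1-KLRG1+ replicate 3 held 93198. Levels are in CPM, the count of a gene per 1000000 counts of its library. Among 6951 genes whose median reached 20 CPM, 9.81 to 29.4% had no count in the Iso PD1-KLRG1+ libraries, against at most 3.57% in any other library. Tri PD1-KLRG1- replicate 5 had 3.41%, against at most 0.101% in the rest of its group. Tri PD1+KLRG1+ replicates 1 to 3 had 2.53 to 3.57%, against at most 0.115% in Tri PD1+KLRG1- libraries. The sort markers followed the gates. Pdcd1, which encodes PD-1, was at 656 to 1646 CPM in PD1+ libraries and 0 to 204 CPM in PD1- libraries, and Klrg1 was at 40.6 to 343 CPM in KLRG1+ libraries and 0 to 37.7 CPM in KLRG1- libraries. CD8+ T cell markers were present in every group, with Cd8a between 743 and 2435 CPM. In Iso PD1-KLRG1+ replicates 3 and 4, Pdcd1 was at 0 and 0.0502 CPM. These 2 libraries and Tri PD1-KLRG1- replicate 5, in which 3 of the 4 chemokines stood far from the other libraries, were also left out together in a fit that was added after the values had been seen.

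The KLRG1+ and KLRG1- gates, the PD1+ and PD1- gates and the treatments were compared in 7 contrasts, with edgeR's quasi-likelihood test and Benjamini-Hochberg adjustment over 14059 genes, and a gene is called at an adjusted p under 0.05. There were 6 calls, on 3 genes. Ccl5 was called in 4 contrasts and Ccl3 and Xcl1 in 1 each, and Ccl4 was not called in any. Ccl5 was lower in PD1+ than in PD1- cells and higher in KLRG1+ than in KLRG1- cells, whereas Ccl3 was higher in PD1+KLRG1+ than in PD1-KLRG1+ cells and Xcl1 was lower in KLRG1+ cells of the Iso group. The counts of called members stand against these shares of all genes called in either direction. They were 1 of 4 in Tri PD1+KLRG1+ over Tri PD1+KLRG1- cells (0.0569% of all genes), 2 of 4 in Iso PD1-KLRG1+ over Iso PD1-KLRG1- cells (8.66%), 2 of 4 in Tri PD1+KLRG1+ over Tri PD1-KLRG1+ cells (1.2%) and 1 of 4 in Tri PD1+KLRG1- over Tri PD1-KLRG1- cells (1.56%). None of the 4 was called in Tri PD1-KLRG1+ over Tri PD1-KLRG1- cells (0%), Tri PD1-KLRG1- over Iso PD1-KLRG1- cells (0.804%) or Tri PD1-KLRG1+ over Iso PD1-KLRG1+ cells (6.08%). In bulk samples, fewer cells of a type and less RNA per cell cannot be told apart.

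**Figure D1:**
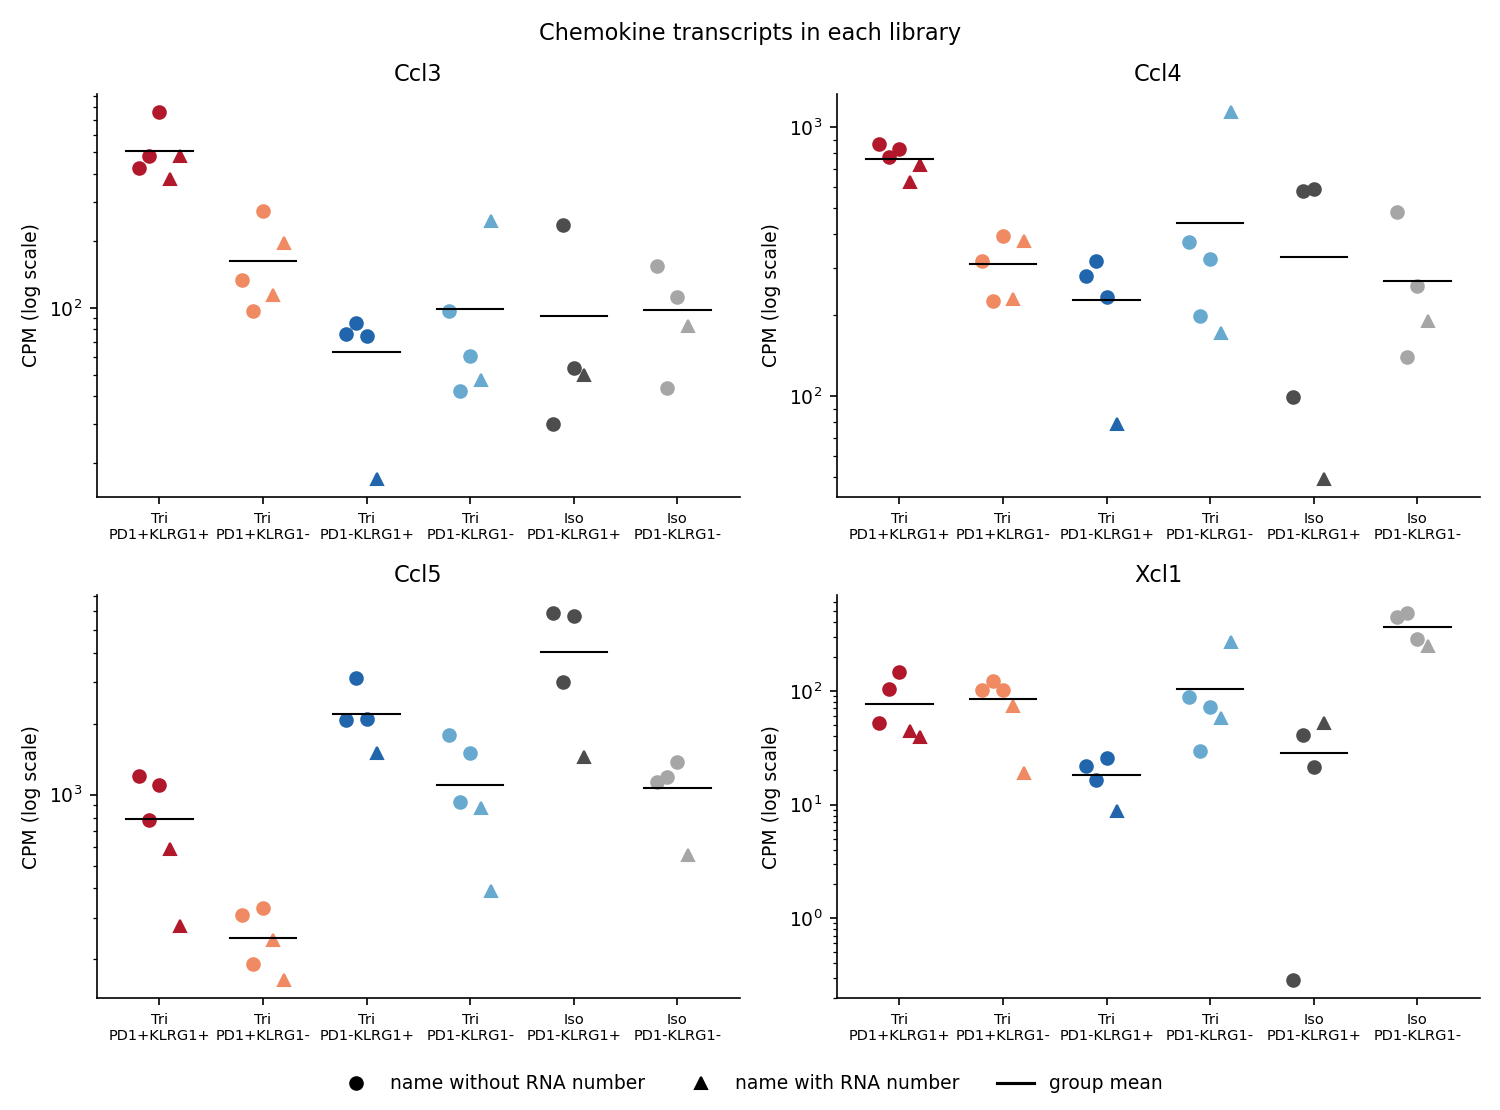
CPM of each chemokine (log axis) in each library of the 6 groups, with a line at the group mean. Triangles are libraries whose description carries an RNA number and circles are the others. Ccl3 in Tri PD1+KLRG1+ libraries (381 to 762 CPM) lies above every library of the other groups, and Xcl1 reaches 249.9 to 482 CPM in Iso PD1-KLRG1- libraries.

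Ccl3, also known as macrophage inflammatory protein 1 alpha, was at 427, 479.7, 762, 381 and 481 CPM in Tri PD1+KLRG1+ libraries. It was at 134, 96.3, 273, 114 and 196 CPM in Tri PD1+KLRG1- libraries and at 76.3, 85.7, 74.5 and 17.0 CPM in Tri PD1-KLRG1+ libraries. The double-positive group was the highest, and none of its libraries overlapped with those of either group. Tri PD1-KLRG1- libraries held 97.1, 42.4, 60.5, 47.1 and 245 CPM. Iso PD1-KLRG1+ libraries held 30.0, 235, 53.6 and 49.8 CPM, of which the third rests on 5 counts, and Iso PD1-KLRG1- libraries held 154, 43.4, 112 and 82.6 CPM. The ranges of these 3 groups overlapped, and in the first 2 of them a single library stood above the rest.

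Tri PD1+KLRG1+ cells held 506 ± 149 CPM of Ccl3 (SD, n = 5) and Tri PD1-KLRG1+ cells 63.4 ± 31.3 CPM (n = 4). The log2 fold change was 2.96 ± 0.62 (SE), or 7.79-fold, with an adjusted p of 0.00947. The groups did not overlap, and 2.46% of all genes were higher in the first group without overlap in this contrast. In libraries without an RNA number in their description it was 2.74 (adjusted p = 0.0435), and in those with one 4.64 (adjusted p = 0.681), a set of 9 libraries with 1 or 2 per group, in which a lone library is assumed to vary like the others. Without Tri PD1-KLRG1+ replicate 4, the lowest of its group, the log2 fold change was 2.58 and the adjusted p 0.0574, and the call stood in 8 of 9 fits that left out 1 library. Sums of genes listed as markers of other cells also differed between these 2 groups without overlap. In both groups Flt3, Clec9a and Siglech of the dendritic cell list and Ncr1 and Klra8 of the NK list had no count. In Tri PD1+KLRG1+ libraries, 3 of the 8 dendritic cell genes and 3 of the 10 NK genes had no count. Of the CD4+ and regulatory T cell list it was 0 of 5 there. In Tri PD1-KLRG1+ libraries these numbers were 3, 3 and 1. Whether such cells were present was not tested. The summed NK markers were at 156 to 188 CPM in Tri PD1+KLRG1+ and 50.9 to 86.5 CPM in Tri PD1-KLRG1+ libraries. Those of CD4+ and regulatory T cells were at 141 to 276 CPM in Tri PD1+KLRG1+ and 62.3 to 95.0 CPM in Tri PD1-KLRG1+ libraries, and those of dendritic cells ran the other way, at 70.9 to 279 CPM against 303 to 371 CPM. Their part in the Ccl3 difference was not tested.

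Between Tri PD1+KLRG1+ cells and Tri PD1+KLRG1- cells, which held 162.5 ± 72.4 CPM (n = 5), the log2 fold change of Ccl3 was 1.63 ± 0.53 and the adjusted p 0.414. The libraries did not overlap here either, and in this contrast 0.469% of all genes were higher in the first group without overlap. Their 2-sided exact permutation p was 0.00794, the smallest that 5 against 5 libraries allow, and 0.0556 after adjustment over the 28 combinations of gene and contrast. Within the name series the log2 fold change was 1.71 without and 1.47 with an RNA number (adjusted p = 0.303 and 1). With limma-voom and sample weights the adjusted p was 0.0185, and without the count filter it was 0.00226. Ccl3 was called in 2 of 13 alternatives here. It was not called with DESeq2 (adjusted p = 0.109), a minimum count of 50 (0.577), the replicate block (0.541) or only the groups compared (0.217). Between the PD-1 gates of Tri KLRG1- cells, PD1+ over PD1-, the log2 fold change of Ccl3 was 0.63 ± 0.52. Ccl3 was not called there with edgeR, and was called in 1 of 13 alternatives, limma-voom (1.375, adjusted p = 0.0101).

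Ccl4, or macrophage inflammatory protein 1 beta, was at 869, 775, 832, 626 and 727 CPM in Tri PD1+KLRG1+ libraries. It was at 320.0, 226, 396, 230.0 and 377 CPM in Tri PD1+KLRG1- libraries and at 281, 319.7, 234 and 78.7 CPM in Tri PD1-KLRG1+ libraries. The double-positive group was again above all libraries of both groups, with the smallest relative spread of the 6 groups (a coefficient of variation of 12.4%, against 25.8 to 90.3% in the others). Tri PD1-KLRG1- libraries held 375, 199, 325, 172 and 1142 CPM. Iso PD1-KLRG1+ libraries held 99.1, 578, 590.1 and 49.4 CPM, and Iso PD1-KLRG1- libraries held 486, 140.5, 258 and 190.0 CPM. Tri PD1-KLRG1- replicate 5 was the highest library of all, and the Iso PD1-KLRG1+ libraries fell into a low and a high pair.

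For Ccl4 no contrast passed the threshold with edgeR. The log2 fold change was 1.29 ± 0.52 in Tri PD1+KLRG1+ cells (766 ± 95.1 CPM, SD, n = 5) over Tri PD1+KLRG1- cells (309.7 ± 79.9 CPM, n = 5), with an adjusted p of 0.49. It was 1.75 ± 0.58 over Tri PD1-KLRG1+ cells (228 ± 106 CPM, n = 4), with an adjusted p of 0.174. Both pairs of groups had libraries that did not overlap, with exact permutation p of 0.00794 and 0.0159, the smallest their sizes allow, and 0.0556 after adjustment. Of all genes, 0.469% and 2.46% were higher in the first group without overlap in these contrasts. Against Tri PD1+KLRG1- cells, Ccl4 passed with limma-voom (log2 fold change 1.27, adjusted p = 0.0442) and without the count filter (1.29, adjusted p = 0.000354). It was called in 2 of 13 alternatives there, and not with DESeq2 (adjusted p = 0.39) or a minimum count of 50 (0.922). Against Tri PD1-KLRG1+ cells, Ccl4 was called in 6 of 13 alternatives. It passed with limma-voom and without the count filter (1.97 and 1.79, adjusted p = 0.00179 and 6.31e-08), and with DESeq2 (1.86, adjusted p = 0.0223). It also passed without the 3 libraries that stand apart (log2 fold change 1.86, adjusted p = 0.0122) and with only the groups compared (1.94, adjusted p = 0.0121). Without the Iso PD1-KLRG1+ libraries it was 1.725 (adjusted p = 0.0471). Between the PD-1 gates of Tri KLRG1- cells, PD1+ over PD1-, the log2 fold change of Ccl4 was -0.63 ± 0.52. Ccl4 was called in 0 of 13 alternatives there.

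Ccl5, known as RANTES, was at 1195, 778, 1101, 591 and 278 CPM in Tri PD1+KLRG1+ libraries. It was at 308, 191, 331, 241 and 163 CPM in Tri PD1+KLRG1- libraries. The last double-positive library lay within the range of the PD1+KLRG1- group, and the other 4 lay above it. Tri PD1-KLRG1+ libraries held 2077, 3127, 2095 and 1501 CPM, and Tri PD1-KLRG1- libraries held 1791, 927, 1499, 882 and 389 CPM. Iso PD1-KLRG1+ libraries held 5901, 3010.1, 5729.7 and 1439.9 CPM, and Iso PD1-KLRG1- libraries held 1127, 1185, 1383 and 556 CPM. The PD1+KLRG1- group was the lowest of the 6 and the KLRG1+ groups of PD1- cells were the highest. In 5 of the 6 groups the libraries with an RNA number held the lowest Ccl5 values, so the contrasts are also given within each name series.

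Ccl5 was lower in PD1+ than in PD1- cells of the Tri group in both KLRG1 gates. Tri PD1+KLRG1- cells held 246.6 ± 72.2 CPM (SD, n = 5) and Tri PD1-KLRG1- cells 1098 ± 552 CPM (n = 5), a log2 fold change of -2.10 ± 0.28 with an adjusted p of 3.19e-05. No library overlapped, as for 2.92% of all genes lower in the first group, and the call stood in all 10 fits that left out 1 library. By name series it was -2.40 in libraries without an RNA number (adjusted p = 0.0006) and -1.67 in those with one (adjusted p = 0.545).

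Tri PD1+KLRG1+ cells held 789 ± 375 CPM of Ccl5 (n = 5) and Tri PD1-KLRG1+ cells 2200.1 ± 677 CPM (n = 4), a log2 fold change of -1.50 ± 0.28 with an adjusted p of 0.00414. These libraries did not overlap, as for 2.25% of all genes lower in the first group. The call stood in all 9 fits that left out 1 library. By name series it was -1.32 without an RNA number (adjusted p = 0.0435) and -1.80 with one (adjusted p = 0.855), and the adjusted p was 0.0669 without a term for the name series.

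Ccl5 was called higher in KLRG1+ than in KLRG1- cells in 2 of 3 contrasts. Among Iso PD1- cells the means were 4020.2 ± 2171 CPM in KLRG1+ (SD, n = 4) and 1062.5 ± 355 CPM in KLRG1- libraries (n = 4), a log2 fold change of 1.74 ± 0.30 with an adjusted p of 0.000507. Every KLRG1+ library lay above every KLRG1- library, as for 1.1% of all genes, and the call stood in all 8 fits that left out 1 library. By name series it was 1.81 without an RNA number (adjusted p = 0.00191) and 1.40 with one (adjusted p = 0.293). The KLRG1+ libraries of this contrast are those with many genes at 0, and the part of that in the difference was not tested.

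Among Tri PD1+ cells, the log2 fold change of Ccl5 in KLRG1+ over KLRG1- cells was 1.56 ± 0.27 with an adjusted p of 0.0217. This call stood in 4 of 10 fits that left out 1 library. It was lost without KLRG1+ replicate 1, 2 or 3 (adjusted p = 0.088, 0.0544 and 0.0616) and without KLRG1- replicate 1, 2 or 3 (0.0672, 0.0725 and 0.0525). It was also lost without a term for the name series (0.25), with only the 2 groups compared (0.153) and with limma-voom (0.0526), and it stood with DESeq2 (3.6e-06). Its log2 fold change was 1.88 in libraries without an RNA number (adjusted p = 0.0216) and 1.13 in those with one (adjusted p = 1). Among Tri PD1- cells, KLRG1+ libraries held 2200.1 CPM and KLRG1- libraries 1098 CPM on average, a log2 fold change of 0.96 ± 0.28 with an adjusted p of 0.887. The ranges of these groups overlapped, and edgeR called 0% of all genes in this contrast. The unadjusted edgeR p of Ccl5 was 0.00193, and Ccl5 was called in 1 of 13 alternatives.

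**Figure D2:**
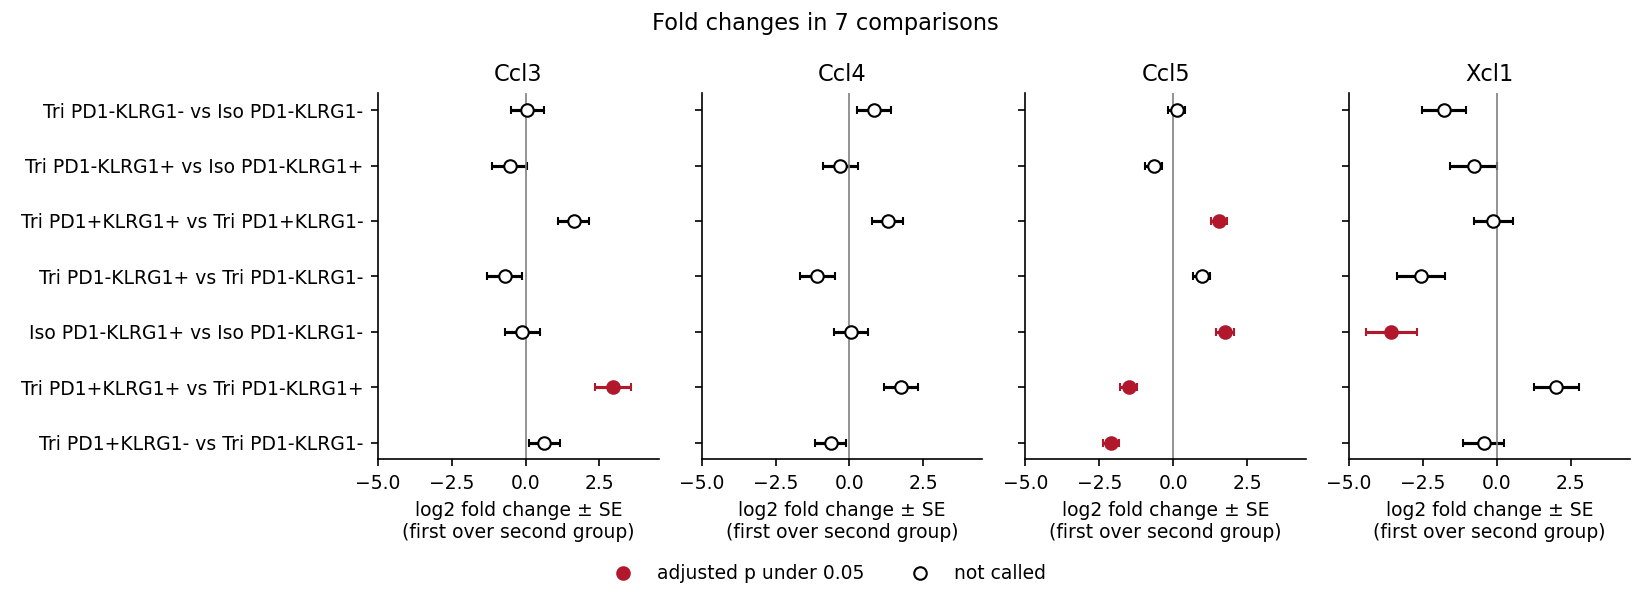
Log2 fold change (horizontal axis, first over second group named at the left) of each chemokine in the 7 contrasts, with bars of 1 SE from edgeR. Filled points have an adjusted p under 0.05. Ccl5 is called on both sides of 0, at -2.10 in Tri PD1+KLRG1- over Tri PD1-KLRG1- cells and at 1.74 in Iso PD1-KLRG1+ over Iso PD1-KLRG1- cells.

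Xcl1 was at 52.1, 104, 147, 43.9 and 39.6 CPM in Tri PD1+KLRG1+ libraries, and at 102, 122, 103, 73.9 and 19.0 CPM in Tri PD1+KLRG1- libraries. Tri PD1-KLRG1+ libraries held 21.9, 16.6, 25.9 and 8.74 CPM, and Tri PD1-KLRG1- libraries held 87.9, 29.7, 72.7, 57.8 and 267 CPM. The PD1-KLRG1+ group lay below all libraries of the double-positive and double-negative Tri groups, and replicate 5 stood above the rest of its group. Iso PD1-KLRG1+ libraries held 0.286, 41.1, 21.5 and 51.7 CPM, and Iso PD1-KLRG1- libraries held 443, 482, 288 and 249.9 CPM. The Iso double-negative group was the highest of all. Among the Iso PD1-KLRG1+ libraries, replicates 1 and 3 rest on 2 counts each, and in replicate 3 they come from a library of 93198 counts.

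In Iso PD1- cells, Xcl1 averaged 28.6 ± 22.7 CPM in KLRG1+ libraries (SD, n = 4) and 366 ± 114 CPM in KLRG1- libraries (n = 4). The log2 fold change was -3.57 ± 0.86, or 11.9-fold lower in KLRG1+ cells, with an adjusted p of 0.00877. The libraries did not overlap, but in this contrast 15.7% of all genes were lower in the KLRG1+ libraries without overlap and all genes together had a median of -0.52 on the log2 scale. The call stood in all 8 fits that left out 1 library and without the 3 libraries that stand apart (-4.47, adjusted p = 0.00384). It was lost with limma-voom and sample weights (-5.55, adjusted p = 0.422) and with only the 2 groups compared (-3.85, adjusted p = 0.0763). By name series it was -4.42 without an RNA number (adjusted p = 0.00762) and -2.25 with one (adjusted p = 0.335).

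In Tri PD1- cells, Xcl1 averaged 18.3 ± 7.41 CPM in KLRG1+ libraries (n = 4) and 103.1 ± 94.3 CPM in KLRG1- libraries (n = 5), a log2 fold change of -2.57 ± 0.81 with an adjusted p of 0.993. These libraries did not overlap, as for 0.967% of all genes lower in the first group, and their exact permutation p was 0.0159 (0.0556 after adjustment). In this contrast edgeR called 0 of 14059 genes, with 675 at an unadjusted p under 0.05, whereas limma-voom called 27 and DESeq2 192. Of the 4 chemokines, edgeR called 0, with 2 at an unadjusted p under 0.05, limma-voom called 0, and DESeq2 called Xcl1 (-2.61, adjusted p = 0.0309). Between Tri PD1+KLRG1+ cells (77.2 ± 46.6 CPM, n = 5) and Tri PD1-KLRG1+ cells the log2 fold change was 2.01 ± 0.76 with an adjusted p of 0.251. These libraries did not overlap, as for 2.46% of all genes higher in the first group. Xcl1 was called here in 3 of 13 alternatives. These were with only those groups fitted (adjusted p = 0.0356), without the Iso PD1-KLRG1+ group (0.0353) and without the count filter (0.00274). In Tri PD1+ cells the difference between the KLRG1 gates was -0.12 ± 0.67 (adjusted p = 1).

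Treatment was compared in PD1- cells, and no chemokine passed the threshold there. In each of the 2 treatment contrasts edgeR called 0 of the 4, with 1 at an unadjusted p under 0.05. Limma-voom called 1 in PD1-KLRG1- and 0 in PD1-KLRG1+ cells, and DESeq2 called 0 and 1. Of all 14059 genes, limma-voom called 1104 and 5 in these contrasts, and DESeq2 called 373 and 1947. The lowest adjusted p in PD1-KLRG1- cells belonged to Xcl1, at 103.1 ± 94.3 CPM under Tri (n = 5) and 366 ± 114 CPM under Iso (n = 4), for a log2 fold change of -1.79 ± 0.75 with an adjusted p of 0.456. Of the 5 Tri libraries, 4 lay below all 4 Iso libraries, and replicate 5, at 267 CPM, lay within the Iso range. Without that library the log2 fold change was -2.58 and the adjusted p 0.128. It was -2.58 with limma-voom and sample weights (adjusted p = 3.09e-06) and -1.75 without the count filter (adjusted p = 0.0235). Xcl1 was called in 2 of 13 alternatives in this contrast, and not with DESeq2 (adjusted p = 0.276).

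Ccl3, Ccl4 and Ccl5 in PD1-KLRG1- cells had log2 fold changes between Tri and Iso of 0.06 ± 0.57, 0.84 ± 0.57 and 0.12 ± 0.28 (adjusted p = 1, 0.967 and 1). In PD1-KLRG1+ cells, Ccl5 averaged 2200.1 ± 677 CPM under Tri (n = 4) and 4020.2 ± 2171 CPM under Iso (n = 4), for a log2 fold change of -0.66 ± 0.30 with an adjusted p of 0.184. Ccl3, Ccl4 and Xcl1 had log2 fold changes of -0.53 ± 0.59, -0.30 ± 0.58 and -0.79 ± 0.80 there (adjusted p = 0.684, 0.862 and 0.646). In this contrast the median of all genes was 0.34, and the Iso libraries are those with many genes at 0.

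Whether the KLRG1 difference itself depended on PD-1 or on treatment was tested as an interaction. With edgeR, 0% of all genes were called for the interaction of KLRG1 with PD-1 and 3.59% for that with treatment, and 0 of the 4 chemokines in each, with 3 and 0 at an unadjusted p under 0.05. Limma-voom and DESeq2 also called 0 of the 4 in both. Of all 14059 genes, limma-voom called 5 for the interaction with PD-1 and 0 for that with treatment, and DESeq2 called 197 and 1264. The KLRG1 difference in Tri PD1+ cells minus that in Tri PD1- cells was 2.33 ± 0.79 for Ccl3, 2.38 ± 0.78 for Ccl4, 0.60 ± 0.39 for Ccl5 and 2.45 ± 1.03 for Xcl1 on the log2 scale (adjusted p = 0.55, 0.55, 1 and 0.874). The KLRG1 difference in Tri minus that in Iso PD1- cells was -0.60 ± 0.82 for Ccl3, -1.14 ± 0.81 for Ccl4, -0.78 ± 0.41 for Ccl5 and 1.00 ± 1.14 for Xcl1 (adjusted p = 0.873, 0.548, 0.32 and 0.81). A KLRG1 difference called in one setting and not in another is therefore not shown to differ between them.

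Levels of different genes were compared per kilobase of annotated exon, joined over all transcripts of a gene. On this scale Ccl5 was the most abundant of the 4 in every PD1- group, from 1107 ± 370 CPM per kilobase in Iso PD1-KLRG1- cells (SD, n = 4) to 4188 ± 2261 in Iso PD1-KLRG1+ cells (n = 4). In the PD1+ groups Ccl4 had the highest mean on this scale, at 1160.4 ± 144 CPM per kilobase in Tri PD1+KLRG1+ (n = 5) and 469 ± 121 in Tri PD1+KLRG1- cells (n = 5), against 821 ± 391 and 257 ± 75.3 for Ccl5. That order depends on the length given to Ccl5, whose joined exons of 960 bases include a transcript that keeps an intron. With its coding transcript of 532 bases, a length chosen after the values had been seen, Ccl5 was at 1482 ± 705 CPM per kilobase in Tri PD1+KLRG1+ cells, above Ccl4, and at 464 ± 136 in Tri PD1+KLRG1- cells, beside 469 for Ccl4. The other 3 genes have the same length either way, so which of Ccl4 and Ccl5 is the more abundant in PD1+ cells is not settled. Xcl1 had the lowest mean of the 4 in every group except Tri PD1-KLRG1- and Iso PD1-KLRG1-, where Ccl3 did. Its range was 34.9 ± 14.2 CPM per kilobase in Tri PD1-KLRG1+ cells to 699 ± 218 in Iso PD1-KLRG1- cells. The 4 genes together held 635 to 1102.5 CPM in Tri PD1+KLRG1- libraries, and 1078.5 CPM or more in every library of the other groups.

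**Figure D3:**
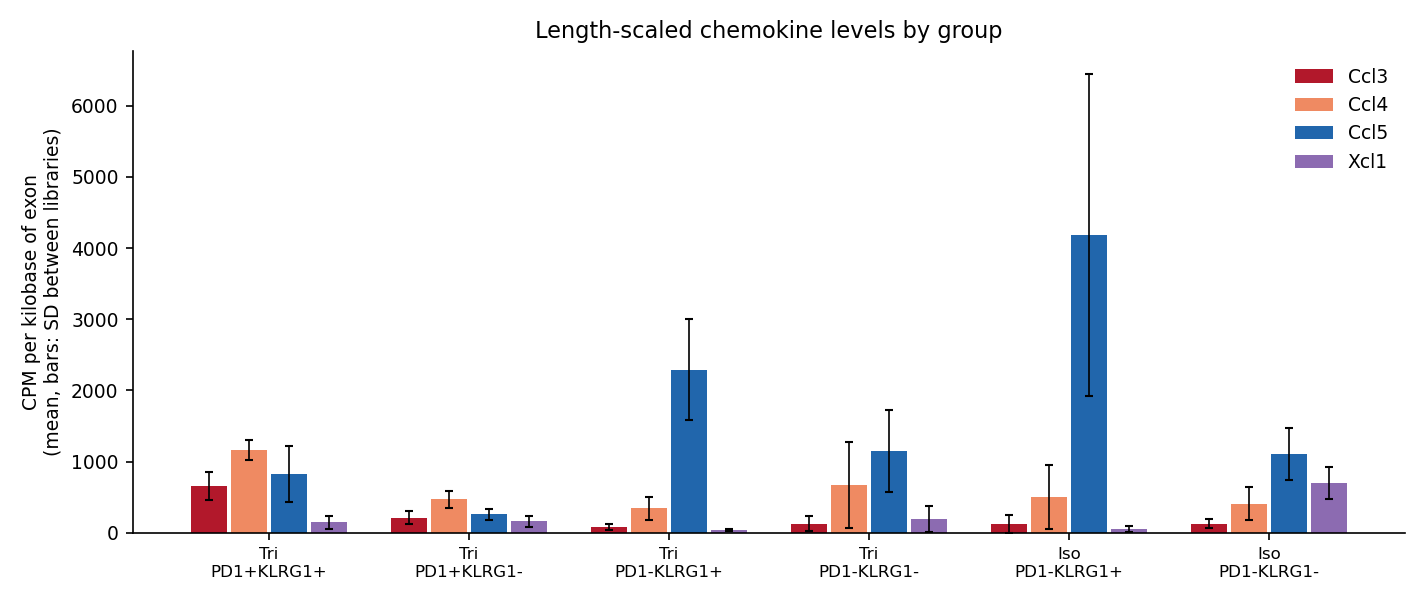
Mean CPM per kilobase of exon of the 4 chemokines by group, with bars of 1 SD between libraries (n = 4 or 5, cut at 0). Ccl5 is the tallest bar in all 4 PD1- groups and Ccl4 in both PD1+ groups, and with the 532 bases of the coding transcript Ccl5 would stand at 1482 in Tri PD1+KLRG1+ cells, above Ccl4 at 1160.4.

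Among the groups ordered by mean Ccl3, the highest, Tri PD1+KLRG1+, did not overlap with the next, Tri PD1+KLRG1-. Every other pair of neighbours in the order overlapped, for Ccl3 and for the other 3 genes. For Ccl4 the order of means from the top was Tri PD1+KLRG1+, Tri PD1-KLRG1-, Iso PD1-KLRG1+, Tri PD1+KLRG1-, Iso PD1-KLRG1- and Tri PD1-KLRG1+. For Ccl5 it was Iso PD1-KLRG1+, Tri PD1-KLRG1+, Tri PD1-KLRG1-, Iso PD1-KLRG1-, Tri PD1+KLRG1+ and Tri PD1+KLRG1-. For Xcl1 it was Iso PD1-KLRG1-, Tri PD1-KLRG1-, Tri PD1+KLRG1-, Tri PD1+KLRG1+, Iso PD1-KLRG1+ and Tri PD1-KLRG1+.

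The balance between Ccl4 and Ccl3 also followed the PD-1 gate under Tri. The log2 ratio of Ccl4 to Ccl3, on CPM + 1, was 0.13 to 1.02 in Tri PD1+KLRG1+ and 0.53 to 1.25 in Tri PD1+KLRG1- libraries, against 1.64 to 2.15 in Tri PD1-KLRG1+ and 1.85 to 2.41 in Tri PD1-KLRG1- libraries. None of the 10 PD1+ libraries overlapped with the 9 PD1- libraries of the same treatment. Replicate 5 of Tri PD1-KLRG1-, in which both genes were high, had a ratio of 2.22, within its group. In Iso libraries the ratio was -0.01 to 3.44 in PD1-KLRG1+ and 1.19 to 1.67 in PD1-KLRG1- cells. This pattern was noticed in the values and carries no test.

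The log2 ratio of Xcl1 to Ccl5 was -4.50 to -2.78 in Tri PD1+KLRG1+, -3.04 to -0.64 in Tri PD1+KLRG1-, -7.47 to -6.28 in Tri PD1-KLRG1+ and -4.92 to -0.54 in Tri PD1-KLRG1- libraries. It was -12.2 to -4.77 in Iso PD1-KLRG1+ and -2.26 to -1.15 in Iso PD1-KLRG1- libraries. The 2 PD1-KLRG1+ groups had the lowest medians, and 4 of 5 Tri PD1-KLRG1- libraries, at -3.91 or below, lay under all Iso PD1-KLRG1- libraries.

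**Figure D4:**
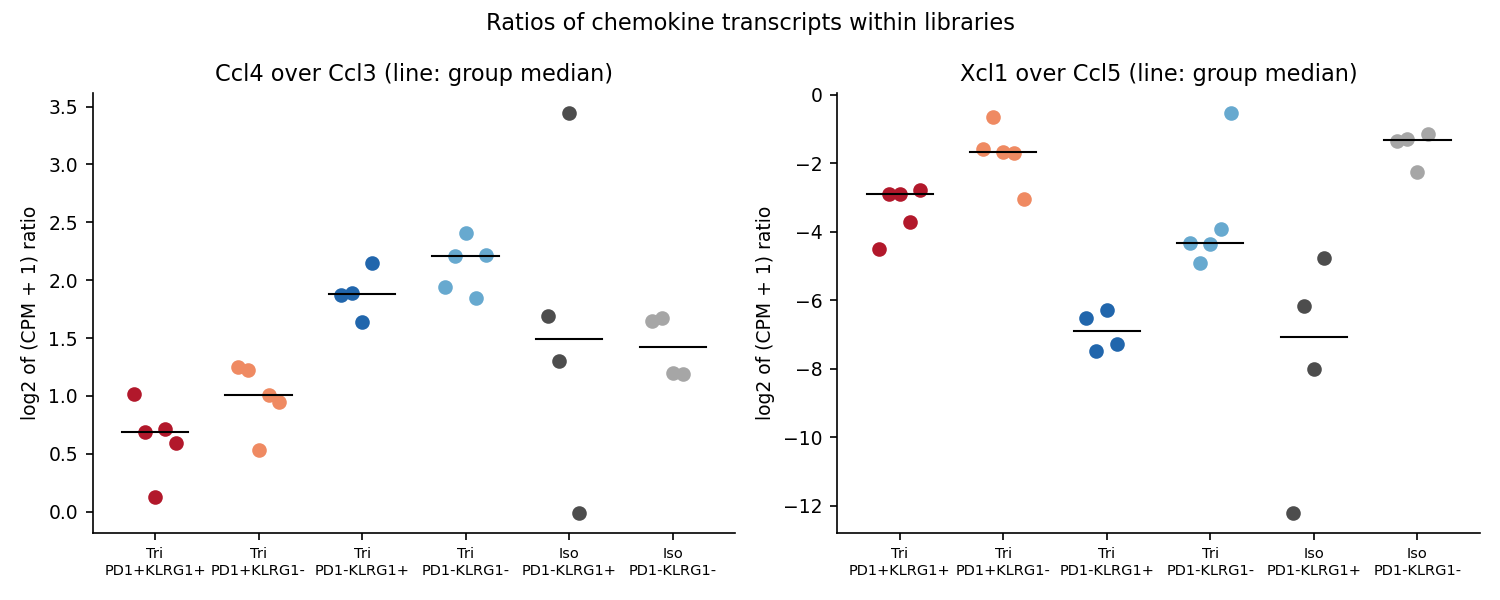
Log2 ratio of Ccl4 to Ccl3 (left) and of Xcl1 to Ccl5 (right) in each library, on CPM + 1, with a line at the group median. The Ccl4 to Ccl3 ratio is at most 1.25 in Tri PD1+ libraries and at least 1.64 in Tri PD1- libraries, and a single Tri PD1-KLRG1- library reaches -0.54 on the right.

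Within groups, libraries that were high in Ccl3 were high in Ccl4. With the group mean and the name series removed from log2 CPM, and without the library of 93198 counts, the 2 genes had a Pearson r of 0.911 over 26 libraries and a Spearman rho of 0.875. Both permutation p were 1e-05, the smallest that 100000 resamples can give, and 6e-05 after Benjamini-Hochberg adjustment over the 6 pairs of genes. Deviations within a group sum to 0, so these p are somewhat too small. Pearson r was 0.852 without the 2 libraries farthest from the median of Ccl3, and 0.936 in the 17 libraries without an RNA number (0.863 without the 2 farthest). In the 9 libraries with an RNA number each group holds 1 or 2, which leaves 3 independent deviations, and no correlation is given. The libraries of a group share their sort and their total depth, and the labels do not say that they are independent.

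Ccl3 and Xcl1 had an r of 0.53 (adjusted permutation p = 0.0176) and a rho of 0.396 (adjusted permutation p = 0.0907). The r was 0.382 without 2 libraries, Tri PD1-KLRG1- replicate 5 and Iso PD1-KLRG1+ replicate 2. In the 17 libraries without an RNA number it was 0.734 with a rho of 0.404, and 0.249 without Iso PD1-KLRG1+ replicates 1 and 2. The relation rests on those few libraries. Ccl5 and Xcl1 had an r of -0.416 and a rho of -0.45 (adjusted permutation p = 0.0643 and 0.067). The remaining 3 pairs had r between -0.29 and 0.326 and adjusted permutation p between 0.159 and 0.191.

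**Figure D5:**
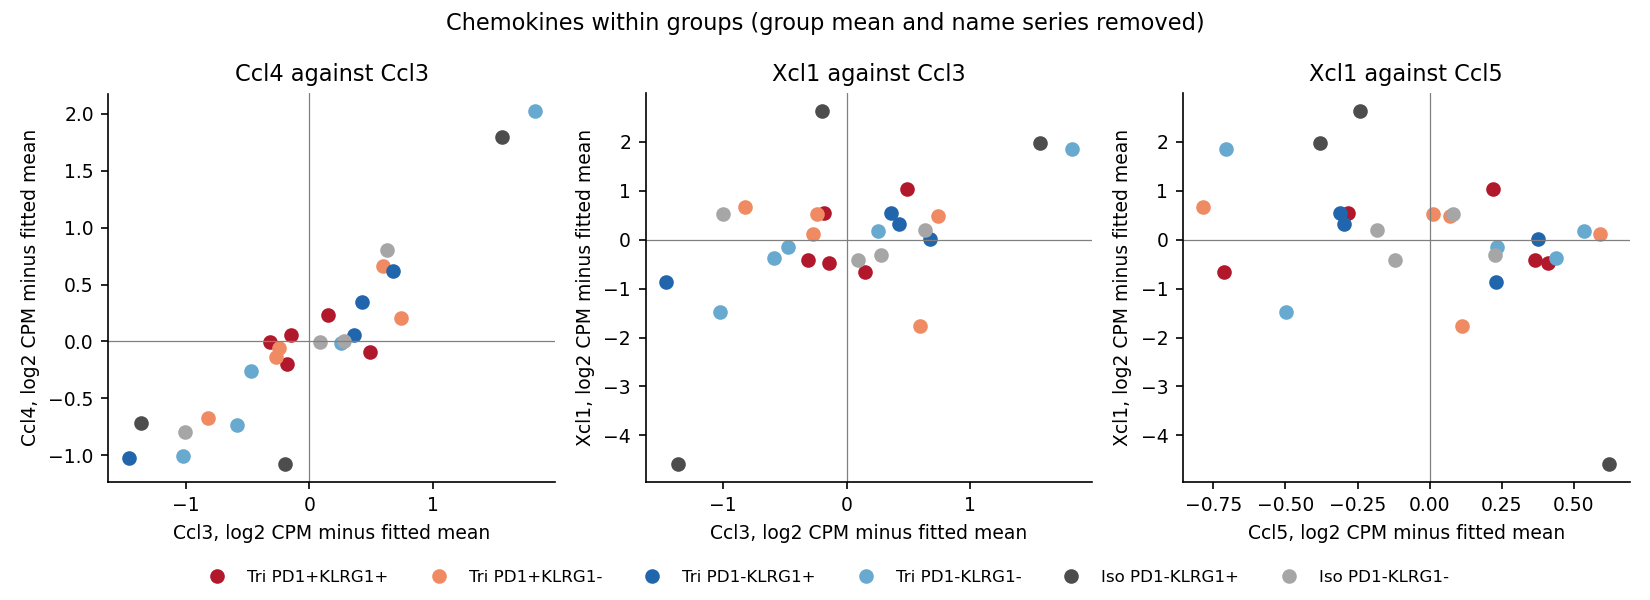
Log2 CPM of pairs of chemokines in 26 libraries after the group mean and the name series were removed, coloured by group. Ccl4 rises with Ccl3 (r = 0.911), Xcl1 has an r of 0.53 with Ccl3, which is 0.382 without 2 libraries, and of -0.416 with Ccl5.

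Genes whose levels were most like each chemokine were ranked by Pearson r of log2 CPM over all 27 libraries, among 4317 genes that averaged 50 CPM or more. The libraries share groups and depth, so r is a description. For Ccl3 these were Ifng (0.858), the gene of interferon gamma, then Ccl4 (0.826), Rgs16 (0.72), a regulator of G protein signalling, Serpine2 (0.686) and Capg (0.682). For Ccl4 they were Ccl3, Ifng (0.776), Snrnp27 (0.694), Eif4h (0.678) and Blvra (0.672). Ifng averaged 486 ± 63.7 CPM in Tri PD1+KLRG1+ (SD, n = 5) and 162 ± 63.1 CPM in Tri PD1-KLRG1+ libraries (n = 4), a log2 fold change of 1.53 ± 0.43 with an adjusted p of 0.0852. Tri PD1-KLRG1- replicate 5, high in Ccl3, Ccl4 and Xcl1, held 505 CPM of Ifng, against 110.0 to 186 CPM in the other 4 libraries of its group.

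For Ccl5 the most similar genes were Coro1a (0.865), an actin regulator, Gzma (0.865), the gene of granzyme A, Rasgrp2 (0.862), Mknk2 (0.837) and Actb (0.824). Gzma, like Ccl5, was lower in Tri PD1+KLRG1- cells (12.0 ± 8.93 CPM, n = 5) than in Tri PD1-KLRG1- cells (454 ± 106 CPM, n = 5), a log2 fold change of -5.65 ± 0.80 with an adjusted p of 8.3e-05. For Xcl1 they were Dnajc19 (0.787), Emc6 (0.77), Hspbp1 (0.765), Eif4b (0.757) and Stat5a (0.746). Without the 4 Iso PD1-KLRG1+ libraries, 2 of the 5 genes stayed among the first 5 for each of Ccl3, Ccl4 and Ccl5, and 0 of 5 for Xcl1. In that set of 23 libraries the gene most like Ccl3 was Ccl4 (0.904), followed by Ifng (0.876). Those most like Xcl1 were H2-Eb1 (0.825), Ccr7 (0.821), Mrpl23-ps1 (0.814), Ddx18 (0.809) and Srm (0.794). Ccr7 is in the dendritic cell list, and the part of other cells in this likeness was not tested.

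Xcr1, which encodes the receptor of Xcl1 and is a dendritic cell gene, averaged 5.39 to 37.9 CPM in the 6 groups and was not called in the 7 contrasts.

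Of 29 other chemokine ligands listed, 16 were tested and Ccl1 was the one that was called. Ccl1, whose receptor is CCR8, averaged 99.4 ± 30.9 CPM in Tri PD1+KLRG1+ (SD, n = 5) and 7.77 ± 7.91 CPM in Tri PD1-KLRG1+ libraries (n = 4), a log2 fold change of 3.63 ± 0.88 with an adjusted p of 0.0333. It was lower in Iso PD1-KLRG1+ cells (0.106 ± 0.134 CPM, n = 4) than in Iso PD1-KLRG1- cells (64.0 ± 55.5 CPM, n = 4), with an adjusted p of 9.46e-05, and higher in Tri PD1-KLRG1+ than in Iso PD1-KLRG1+ cells (adjusted p = 0.00334). The 1 of 16 called in each of these 3 contrasts stands beside 1.2%, 8.66% and 6.08% of all genes. The list's median log2 fold change was between -1.73 and -1.24 in the treatment and KLRG1 contrasts, and -0.03 and 0.04 in the PD-1 contrasts, beside -0.52 to 0.34 over all genes in the 7 contrasts.

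Of 6 cytokine genes known to be released with these chemokines (Ifng, Tnf, Csf2, Lta, Il2 and Tnfsf14), all were tested. Il2 and Csf2 were lower in Iso PD1-KLRG1+ than in Iso PD1-KLRG1- cells, the contrast in which Xcl1 was called. Il2, a growth factor of T cells, averaged 0.0697 ± 0.139 CPM in KLRG1+ and 14.2 ± 11.5 CPM in KLRG1- libraries (SD, n = 4 each, adjusted p = 0.0222). Csf2, which encodes the growth factor GM-CSF, had no count in the 4 KLRG1+ libraries and 5.16 ± 6.08 CPM in KLRG1- libraries (adjusted p = 0.0382). In this contrast 8.66% of all genes were called and 15.7% were lower in the KLRG1+ libraries without overlap, and 9.81 to 29.4% of well-expressed genes had no count in those libraries. The part of that in the cytokine values was not tested. The median log2 fold change of the 6 was -2.34, beside -0.52 over all genes. No cytokine was called in the other 6 contrasts.

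Of 12 genes of the early antigen-receptor response, Tnfrsf9 and Cd69 were called in opposite directions between the PD-1 gates. Tnfrsf9, which encodes the costimulatory receptor 4-1BB, averaged 1188 ± 155 CPM in Tri PD1+KLRG1+ (n = 5) and 299 ± 11.8 CPM in Tri PD1-KLRG1+ libraries (n = 4), a log2 fold change of 1.87 ± 0.34 (adjusted p = 0.00291). Cd69, an early activation and retention marker, averaged 132 ± 35.8 CPM in Tri PD1+KLRG1+ and 362 ± 47.3 CPM in Tri PD1-KLRG1+ libraries, a log2 fold change of -1.53 ± 0.26 (adjusted p = 0.00172). In the KLRG1- gate, Tri PD1+ over Tri PD1- cells, the log2 fold changes were 2.68 ± 0.32 for Tnfrsf9 (adjusted p = 1.55e-05) and -1.43 ± 0.25 for Cd69 (adjusted p = 0.0014).

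Cd69 was also called in 2 further contrasts. It was higher in Tri than in Iso PD1-KLRG1+ cells (1.94 ± 0.29, adjusted p = 0.000141) and lower in Iso PD1-KLRG1+ than in Iso PD1-KLRG1- cells (-1.45 ± 0.29, adjusted p = 0.00172). The other 10 genes of the list were not called in the 7 contrasts. The list thus had 2 of 12 called in each PD-1 contrast, where 1.2% and 1.56% of all genes were called, and 1 of 12 in each of the other 2, where 6.08% and 8.66% were.

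Among 18 transcription factors that act on chemokine genes, Irf1, an interferon response factor, was lower in PD1+ than in PD1- cells of the Tri group. Its log2 fold change was -1.24 ± 0.20 in Tri PD1+KLRG1- over Tri PD1-KLRG1- cells (adjusted p = 0.000402) and -0.94 ± 0.21 in Tri PD1+KLRG1+ over Tri PD1-KLRG1+ cells (adjusted p = 0.0153). Tbx21, which encodes the effector regulator T-bet, and Rela, an NF-kB subunit, were higher in Iso PD1-KLRG1+ than in Iso PD1-KLRG1- cells (1.38 ± 0.25 and 1.08 ± 0.26, adjusted p = 0.000671 and 0.00877). Klf13, a factor known for acting on the Ccl5 promoter, was lower in that contrast (-1.18 ± 0.33, adjusted p = 0.0224). Junb, an AP-1 subunit, was lower under Tri in PD1-KLRG1- cells (-1.16 ± 0.19, adjusted p = 0.00218) and in PD1-KLRG1+ cells (-0.91 ± 0.20, adjusted p = 0.00756). Rela was lower under Tri in PD1-KLRG1+ cells (-0.97 ± 0.26, adjusted p = 0.0241). Of the 18, at most 3 were called in a contrast, which was in the Iso cells, where 8.66% of all genes were.

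The list of granule genes holds 11 whose products are stored in, or release, the vesicles of killer cells. Gzmk, the gene of granzyme K, was lower in Tri PD1+KLRG1- than in Tri PD1-KLRG1- cells (-2.31 ± 0.29, adjusted p = 2.53e-05) and in Tri PD1+KLRG1+ than in Tri PD1-KLRG1+ cells (-1.34 ± 0.30, adjusted p = 0.0168), as Ccl5 was. It was higher in Tri PD1+KLRG1+ than in Tri PD1+KLRG1- cells (1.56 ± 0.29, adjusted p = 0.0217), as was Gzmb (0.98 ± 0.18, adjusted p = 0.0217). Prf1, the gene of perforin, ran the other way between PD-1 gates, at 1001 ± 121 CPM in Tri PD1+KLRG1+ (n = 5) and 251 ± 84.8 CPM in Tri PD1-KLRG1+ libraries (n = 4), a log2 fold change of 1.91 ± 0.28 (adjusted p = 0.000558). Of the 11 granule genes, 1 was called higher and 3 lower in Tri PD1+KLRG1- over Tri PD1-KLRG1- cells (1.56% of all genes called), and 1 higher and 2 lower in Tri PD1+KLRG1+ over Tri PD1-KLRG1+ cells (1.2%). By KLRG1 gate, 2 were higher in Tri PD1+ (0.0569%), 6 higher in Iso PD1- (8.66%) and 0 called in Tri PD1- cells (0%). By treatment, 2 were higher in PD1-KLRG1- (0.804%), and 1 was higher and 1 lower in PD1-KLRG1+ cells (6.08%).

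Myeloid cells and NK cells also transcribe these chemokines, and their markers moved between the groups. The summed level of 15 myeloid markers was 223 to 659 CPM in Tri PD1+KLRG1+, 222 to 596 CPM in Tri PD1+KLRG1-, 186 to 229 CPM in Tri PD1-KLRG1+ and 152 to 491 CPM in Tri PD1-KLRG1- libraries. It was 107 to 7517 CPM in Iso PD1-KLRG1+ and 651 to 3306 CPM in Iso PD1-KLRG1- libraries. The high end belonged to Iso PD1-KLRG1+ replicate 4, which held 49.8 CPM of Ccl3, 49.4 CPM of Ccl4, 1439.9 CPM of Ccl5 and 51.7 CPM of Xcl1. Its CD8+ T cell markers summed to 7268 CPM, against 10730 to 12200 CPM in the other libraries of its group. The part of myeloid cells in these values was not tested. Of the 15 markers, 0 to 4 had no count in a Tri group, and the median sum was 472 and 448 CPM in the PD1+KLRG1+ and PD1+KLRG1- groups, against 198 and 212 CPM in the PD1-KLRG1+ and PD1-KLRG1- groups under Tri. Tri PD1-KLRG1- replicate 5 held 491 CPM of myeloid markers, against 152 to 248 CPM in the other 4 libraries of its group, and the part of this in its high Ccl3, Ccl4 and Xcl1 was not tested.

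The summed level of 10 NK markers was 156 to 188 CPM in Tri PD1+KLRG1+, 152 to 291 CPM in Tri PD1+KLRG1-, 50.9 to 86.5 CPM in Tri PD1-KLRG1+ and 40.0 to 106 CPM in Tri PD1-KLRG1- libraries. It was 10.7 to 606 CPM in Iso PD1-KLRG1+ and 264.5 to 404 CPM in Iso PD1-KLRG1- libraries. Of the 10 markers, 3 had no count in each Tri group, Ncr1 and Klra8 in all 4, and the sum was higher in every Tri PD1+ library than in any Tri PD1- library. Fcer1g and Tyrobp are in both the NK and the myeloid list, so the sums of these lists are not independent. The part of the NK markers in the PD-1 contrasts was not tested. All 5 Tri PD1-KLRG1- libraries lay below all 4 Iso PD1-KLRG1- libraries in this sum, as 4 of the 5 did in Xcl1. The same full separation held for the sums of myeloid, dendritic cell (281 to 454.5 against 554 to 1055 CPM) and B cell markers (0 to 22.4 against 24.9 to 27.5 CPM). Sums of CD4+ and regulatory T cell and of tumour or stroma markers overlapped, and CD8+ T cell sums were higher under Tri (12060 to 13260 against 8795 to 10860 CPM). The part of these markers in the Xcl1 difference was not tested. Markers of B cells (0 to 67.2 CPM), dendritic cells (61.5 to 1734 CPM), CD4+ and regulatory T cells (0 to 369 CPM, with medians of 236 and 241 CPM in the Tri PD1+KLRG1+ and PD1+KLRG1- groups, against 76.2 and 131 CPM in the PD1-KLRG1+ and PD1-KLRG1- groups) and tumour or stroma (4.20 to 3466 CPM) also varied, and the highest tumour or stroma and dendritic cell sums lay in Iso PD1-KLRG1+ libraries.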

How the data were processed

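The authors deposited raw counts, whole numbers per mouse gene with no normalisation, for 27 libraries of sorted CD8+ T cells. The submitters' processing notes name DESeq2 1.26.0 but not what it was used for. Aligner, counter, strand setting and build: not given in the sources used here. GENCODE M21 gave symbols for 47224 of the 47729 IDs. Columns were matched to samples by their labels, and groups are the treatment and gates in the titles. CPM divides a count by the library's total.

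The low-count filter of edgeR (filterByExpr, minimum count 10) passed 14059 genes, the 4 chemokines among them. A robust quasi-likelihood model (edgeR 4.0.16, R 4.3.3, TMM scaling) took in all 27 libraries, with terms for the group and for the name series, which is whether the label's description carries an RNA number (replicate 4 of Iso, replicates 4 and 5 of Tri). P-values were adjusted by Benjamini-Hochberg over all genes and called under 0.05. A standard error is the log2 fold change over the square root of F. Single genes were also compared by 2-sided exact permutation of log2 CPM (scipy 1.17.1). The code was tested on simulated counts in which 200 genes were changed 4-fold in Tri PD1+KLRG1+ libraries. In Tri PD1+KLRG1+ over Tri PD1+KLRG1- cells, edgeR called 22% of them, and 0% of its calls were false. A gene that was not called is therefore not shown to be unchanged. Alternatives were another scaling, other count filters, no series term, 1 series at a time, fits restricted to the compared groups, a replicate block, leaving out libraries, limma-voom (limma 3.58.1) and DESeq2 1.42.0.

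The chemokines and the gene lists were chosen with earlier results of these data known. Named genes are the 4 chemokines, the sort markers, up to 4 called members of each list in each comparison with the smallest p, and the 5 genes most like each chemokine, without antigen-receptor segments and Gm and Rik models. The result of 1 listed gene is not reported here. Other genes named, such as Xcr1, Ifng and the markers, were chosen after their values were seen. Depth limits the library of 93198 counts most, in which 1 count is worth over 10 CPM.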

Additional observations from a re-analysis of the deposited data

Results flagged for a closer look

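Of 24 combinations of chemokine and group, 6 held a library whose gap to its nearest neighbour, as a share of the group's range, was above Dixon's critical value at the 95% level. Chance flags about 1 in 20 such groups. Replicate 5 of Tri PD1-KLRG1- accounted for 3 of them, at 245 CPM of Ccl3, about 1140 CPM of Ccl4 and 267 CPM of Xcl1, above the other 4 libraries of its group. Ccl3 was also far above the rest of its group in Tri PD1+KLRG1+ replicate 3 (762 CPM) and Iso PD1-KLRG1+ replicate 2 (235 CPM), and far below it in Tri PD1-KLRG1+ replicate 4 (17.0 CPM).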

How the results depend on the processing

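Of the log2 fold changes of the 4 chemokines refitted without 1 library, 367 kept their direction and side of the threshold, 7 lost a call and 22 changed sign. Under the other alternatives 365 were kept, 25 gained and 18 lost a call, and 40 changed sign. Every sign change was in a value that was not called. Where no value shows a cause, the cause was not tested. The library of 93198 counts limits Xcl1 and Ccl3 in Iso PD1-KLRG1+ cells, where they rest on 2 and 5 counts.

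The number of chemokines called ranged over the fits without 1 library from 0 to 1 in Tri PD1+KLRG1+ over Tri PD1+KLRG1- and from 1 to 2 in Tri PD1+KLRG1+ over Tri PD1-KLRG1+ cells. Without a count filter it was 1 in each treatment contrast, 3 in each KLRG1 contrast under Tri, 4 in Tri PD1+KLRG1+ over Tri PD1-KLRG1+ cells, 2 for the interaction with PD-1 and 1 for that with treatment. Without the series term it was 0 in Tri PD1+KLRG1+ over Tri PD1+KLRG1- and 1 over Tri PD1-KLRG1+ cells. In libraries with an RNA number, and by exact permutation, whose smallest adjusted p was 0.0556, it was 0 in all 4 contrasts with a call. With only the groups compared it was 0 in Tri PD1+KLRG1+ over Tri PD1+KLRG1- cells, 1 in Iso PD1-KLRG1+ over Iso PD1-KLRG1- cells, with 4 in Tri PD1+KLRG1+ over Tri PD1-KLRG1+ cells, and 4 there also without the Iso PD1-KLRG1+ libraries. Limma-voom called 1 in Tri over Iso PD1-KLRG1-, 2 in Tri PD1+KLRG1+ over Tri PD1+KLRG1- (Ccl3 and Ccl4, while Ccl5 lost its call at an adjusted p of 0.0526), 1 in Iso PD1-KLRG1+ over Iso PD1-KLRG1- cells, with 2 in Tri PD1+KLRG1- over Tri PD1-KLRG1- cells. Both it and DESeq2 called 3 in Tri PD1+KLRG1+ over Tri PD1-KLRG1+ cells. DESeq2 called 1 in Tri PD1-KLRG1+ over Tri PD1-KLRG1- cells and 1 in Tri over Iso PD1-KLRG1+ cells.

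Signs changed in these log2 fold changes. In Tri over Iso PD1-KLRG1- cells, Ccl3 was -0.035 without the series term, -0.61 without an RNA number, -0.21 with only the groups compared, -0.71 without the 3 libraries that stand apart, -0.63 with limma-voom and -0.25 by permutation. Ccl4 was -0.041 without those 3 libraries and -0.024 with limma-voom, and Ccl5 was -0.0077 without the series term and -0.11 by permutation. In Tri over Iso PD1-KLRG1+ cells, Xcl1 was 0.16 without an RNA number, 0.037 without the 3 libraries, 1.19 with limma-voom and 0.60 by permutation. Ccl4 was 0.62 with an RNA number, 0.043 with limma-voom and 0.069 by permutation, and Ccl5 was 0.0082 with an RNA number. In Iso PD1-KLRG1+ over Iso PD1-KLRG1- cells, Ccl3 was 0.051 with RLE scaling, 0.023 without an RNA number, 0.21 without the 3 libraries and 0.029 with DESeq2. Ccl4 was -1.92 with an RNA number, -0.18 with only the groups compared, -0.55 with limma-voom and -0.34 by permutation.

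In Tri PD1-KLRG1+ over Tri PD1-KLRG1- cells, Ccl3 was 0.24 without an RNA number. In Tri PD1+KLRG1- over Tri PD1-KLRG1- cells, Ccl4 was 0.0085 and Xcl1 0.71 without an RNA number, 0.33 and 0.40 without the 3 libraries, and 0.22 and 0.35 with limma-voom. The interaction with treatment was 0.22 for Ccl3 without an RNA number, 0.096 for Ccl3 and 0.067 for Ccl4 with limma-voom, and -1.95 for Xcl1 with an RNA number, where that of KLRG1 with PD-1 was -0.14 for Ccl5.

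Without 1 library, ranges that crossed 0 were -0.71 to 0.33 for Ccl3, -0.047 to 1.17 for Ccl4 and -0.034 to 0.26 for Ccl5 in Tri over Iso PD1-KLRG1- cells. They were -0.88 to 0.60 for Ccl3 and -0.68 to 0.31 for Ccl4 in Tri over Iso PD1-KLRG1+ cells, and -1.22 to 0.19 for Ccl3 and -0.56 to 0.45 for Ccl4 in Iso PD1-KLRG1+ over Iso PD1-KLRG1- cells. They were -0.46 to 0.041 for Xcl1 in Tri PD1+KLRG1+ over Tri PD1+KLRG1- cells, and -0.86 to 0.39 for Ccl4 and -0.74 to 0.40 for Xcl1 in Tri PD1+KLRG1- over Tri PD1-KLRG1- cells. For Ccl3 the interaction with treatment ran from -0.94 to 0.62.

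No label states that equal replicate numbers mark a shared source, though the description names run in sequence over the gates of a number. In no pair of groups were all same-numbered libraries correlated above 0.1 in their deviations, so the main fit did not use the numbers as pairs. The median correlation was 0.0781 for same-numbered pairs and -0.0185 for others, so a shared source is not settled. Of 31 same-numbered pairs, 12 were above 0.1. They include all 6 pairs of Tri replicate 4 (0.21 to 0.54), and 4 of the 5 pairs of Tri PD1+KLRG1- with Tri PD1-KLRG1- libraries (0.23 to 0.52). The replicate block changed no number of chemokines called and turned the sign of 2 log2 fold changes, Ccl4 in Iso PD1-KLRG1+ over Iso PD1-KLRG1- cells (-0.38) and Ccl3 in Tri over Iso PD1-KLRG1- cells (-0.42).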
